A study of Mus musculus with 6 samples.

Results

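The *Ifitm* genes encode small membrane proteins of the CD225 family, and the 5 members described here, *Ifitm1*, *Ifitm2*, *Ifitm3*, *Ifitm6*, and *Ifitm10*, were chosen by name from the 54232 genes of the expression files. The RNA-seq libraries were of CNS monocytes sorted during EAE, an autoimmune disease of the mouse in which immunization with myelin antigen models multiple sclerosis. The mice were mixed BM chimeras, in which lethally irradiated GFP+ recipients had received equal numbers of BM cells from WT donors (CD45.1) and from *Ifnar1*-/- donors (CD45.2), which lack a chain of the receptor for type I IFNs. All mice were treated daily with 30000 IU of IFN-β, and donor-derived monocytes (GFP-CD45+CD11b+Ly6ChiLy6G-) were sorted by CD45 variant at disease peak. There were 3 WT and 3 *Ifnar1*-/- libraries, every one of them from treated mice, so the comparison was between cells with and without the receptor in the same treated hosts and not between treated and untreated mice. *Ifnar1*-/- donors lacked the receptor in every cell from birth, and receptor genotype cannot be told apart from other differences between the CD45.1 and CD45.2 donors. The labels number the libraries of each group from 1 to 3 but do not say whether they came from separate mice. The study's figure legend gives 3 recipient mice and n = 3 per group, without linking libraries to mice. WT and *Ifnar1*-/- libraries may therefore be paired by host, but the main test was unpaired. Its p-values measure the spread between these libraries, which may be in part technical.

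IFITM proteins sit in the plasma membrane and in the membranes of endosomes and lysosomes, where they hinder the fusion of enveloped viruses with the cell. *Ifitm1*, *Ifitm2*, and *Ifitm3* are known as IFN-induced genes, and IFITM3, which acts mostly in late endosomes, is known for restricting influenza virus. *Ifitm6* is a rodent member of the same chromosomal cluster, and *Ifitm10* is a more distant relative that is not regarded as an IFN-induced gene. Type I IFNs act through IFNAR1 and IFNAR2, which activate the kinases JAK1 and TYK2, and these activate STAT transcription factors. STAT complexes bind DNA at the IFN-stimulated response element, or ISRE, and at the GAS element.

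The promoter sequences of the members are shown first, since the promoter windows searched differed in whether they held the letters of these elements. In the coordinates of GRCm38, *Ifitm2* (chr7:140954837-140955987, minus strand), *Ifitm1* (chr7:140967221-140969825, plus strand), *Ifitm3* (chr7:141009586-141010770, minus strand), and *Ifitm6* (chr7:141015699-141017924, minus strand) lie in a cluster that, with the bone-specific gene *Ifitm5*, spans 69.0 kb. *Ifitm10* (chr7:142325837-142373753, minus strand) lies 1.31 Mb beyond it. RefSeq promoter windows of GRCm38.p6, from 250 bases before to 50 bases after the start of a gene, were available for all 5 members and were searched on both strands for the ISRE core GAAANNGAAA, for the longer form GAAANNGAAACT that contains it, and for the GAS letters TTCNNNGAA. These motifs were chosen with the values of the genes known. *Ifitm3* was the only member with the longer form, which it held at 2 places, whereas 0.271% of all 32851 windows held it at least once. Both matches lie in a stretch of 29 bases in the 5′ UTR of the GENCODE transcript (chr7:141010714-141010742, minus strand), which starts at base 3 of the RefSeq transcript. *Ifitm2* held 1 match to the core, beginning 46 bases before the RefSeq start, and 3.44% of all windows held the core. The *Ifitm3* stretch and a stretch of the same length from the *Ifitm2* match (chr7:140955979-140956007, minus strand) are given here 5′ to 3′ with the cores in capitals.
Ifitm3: GAAAAGGAAActtctgaGAAACCGAAAct
Ifitm2: GAAAAGGAAAttgctagagaaagggcggg
The core letters of the *Ifitm2* match were the same as those of the first *Ifitm3* match, but the bases CT that end both *Ifitm3* matches did not follow them. The second core was found in the *Ifitm3* stretch only. A GAS match, TTCTGAGAA, overlapped both ISRE matches of *Ifitm3*. The other GAS match among the members was in *Ifitm6*, beginning 10 bases before the RefSeq start (chr7:141016885-141016911, minus strand, match in capitals), and 8.30% of all windows held these letters.
Ifitm6: catatgaacTTCCTTGAAacaagagct
The windows of *Ifitm1* and *Ifitm10* held none of the 3 motifs, which says only that these letters are not in these windows. The windows of *Ifitm1* (chr7:140967826-140968125) and *Ifitm6* (chr7:141016843-141017142) lie within the GENCODE ranges of these genes. The sequence around the 5′ ends of those 2 ranges was therefore not searched.

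The 224 bases upstream of the GENCODE start are given for *Ifitm3* (chr7:141010771-141010994, minus strand) and *Ifitm2* (chr7:140955988-140956211, minus strand), since these genes are the most alike of the members in their coding sequence and 1 of them, *Ifitm3*, was called. Capitals again mark the ISRE core.
Ifitm3: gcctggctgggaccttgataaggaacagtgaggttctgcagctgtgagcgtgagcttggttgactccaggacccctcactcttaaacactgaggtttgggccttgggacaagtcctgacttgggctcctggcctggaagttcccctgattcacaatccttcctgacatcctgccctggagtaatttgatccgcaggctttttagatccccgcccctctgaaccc
Ifitm2: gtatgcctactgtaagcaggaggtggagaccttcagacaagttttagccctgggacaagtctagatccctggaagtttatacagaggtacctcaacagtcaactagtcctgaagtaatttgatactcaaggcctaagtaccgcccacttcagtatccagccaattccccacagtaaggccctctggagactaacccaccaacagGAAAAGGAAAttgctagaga
The *Ifitm3* run held no core, since its matches lie downstream of the GENCODE start, and the *Ifitm2* match lies in the last bases of its run. Over the whole windows, 156 of 229 aligned bases (68.1%) were identical between the genes. In the coding sequences without the stop codon, the identity was 80.9% between *Ifitm2* (432 bases) and *Ifitm3* (411 bases), 80.6% between *Ifitm1* (318 bases) and *Ifitm3*, and 79.6% between *Ifitm1* and *Ifitm2*. *Ifitm6* (372 bases) and *Ifitm10* (603 bases) were more distant, with 60.5% to 69.0% identity to any other member.

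Reads of such similar genes can be hard to assign, and the authors used RSEM, which divides a read that fits several genes among them. The members themselves were distinct at the read length: of all 75-base windows in their annotated transcripts, 0.582% of *Ifitm1*, 0.662% of *Ifitm3*, and 0% of *Ifitm6* also occurred in a transcript of another gene, and that gene was the pseudogene *Gm7676* for both *Ifitm1* and *Ifitm3*. *Ifitm2* shared 42.0% of its windows, with 4 pseudogenes and with *Gm45717*, a gene that overlaps it. These partners were nearly silent in the files, with 0 counts for each of the 4 pseudogenes and at most 0.32 for *Gm45717* in any library. The expected counts of the members were whole numbers in every library except that of *Ifitm2* in WT library 1 (705.94). *Ifitm10* shared 2.99% of its windows with *Gm49369*, which overlaps it on the same strand and had 217.6 to 377.7 counts per library.

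Libraries held 4531782 to 7321380 expected counts, and the detection floor of 3 counts corresponded to 0.410 to 0.662 CPM (counts scaled to the size of a library), which covers counting error only. Of 11254 genes that passed the filter on low counts, the edgeR quasi-likelihood test with Benjamini-Hochberg adjustment called 188 higher (1.67%) and 52 lower (0.462%) in WT monocytes, at thresholds of 0.05 for the adjusted p and 1.5 for the fold. The lower calls depended on single libraries, since 7 were left without WT library 3, 7 without *Ifnar1*-/- library 1, and 10 without *Ifnar1*-/- library 3, where 141, 112, and 110 genes were called higher, and 26 and 25 were left without WT library 1 and *Ifnar1*-/- library 2. Monocyte markers summed to 8413 to 10221 normalized CPM in WT and 8870 to 10198 in *Ifnar1*-/- libraries, where normalized CPM are counts scaled by TMM library sizes. Of these 8 markers 5 had a positive log2 fold change and 1 was called, *Ly6c2* (log2 fold change 1.40), a gene of the sort marker Ly6C. *Ccr2* was lower in WT, with groups that did not overlap, but was not called (log2 fold change -0.62, adjusted p = 0.143 from edgeR). The targeted gene, *Ifnar1*, was measured at 153, 126, and 111 normalized CPM in the WT group and at 110, 102, and 109 in the *Ifnar1*-/- group (log2 fold change 0.28, SE 0.15, adjusted p = 0.360 from edgeR), so transcript counts of the whole gene did not separate the groups at this threshold. T cell markers summed to 18.5 to 44.5 normalized CPM in WT and 7.46 to 18.6 in *Ifnar1*-/- libraries, with 0 of 6 tested called and 6 of 6 with a positive log2 fold change. Neutrophil markers summed to 427 to 1986 in WT and 847 to 2290 in *Ifnar1*-/- libraries (0 of 8 called), with *Ly6g* at no more than 1 normalized CPM, and endothelial cell markers to 91.0 to 193 and 61.2 to 95.7 (0 of 2 tested called). Most of the endothelial sum was *Flt1*, with means of 121 in WT and 66.7 in *Ifnar1*-/- libraries. In the same order *Pecam1* had 8.95 and 6.57, *Cdh5* 1.06 and 0.423, and *Cldn5* 0.387 and 0.184. B cell markers summed to 1.49 to 1.71 and 0.305 to 1.10 (0 of 4 tested), and microglia markers to 30.6 to 40.7 and 40.8 to 43.4 (3 of 5 tested). DC markers summed to 19.2 to 29.8 and 14.9 to 24.0 (2 of 6 tested), and oligodendrocyte markers to 41.9 to 54.4 and 40.2 to 47.8 (1 of 3 tested). None of the tested genes of these lists was called, no B cell marker could be, and *Mog* was at 0 counts throughout. In bulk libraries fewer cells of a type and less RNA per cell cannot be told apart. The part of these other cell types in the results below was not tested.

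*Ifitm3* was the only member called in the main test, and it was 2.08-fold higher in WT than in *Ifnar1*-/- monocytes. *Ifitm1*, *Ifitm2*, and *Ifitm6* did not pass the threshold, with log2 fold changes of -0.54, -0.03, and 0.10. The *Ifitm1* groups did not overlap either, with WT lower (adjusted p = 0.0682 from edgeR), so a difference in *Ifitm1* is not excluded. Of the 5 members, 4 passed the filter on low counts, 1 of these was called higher in WT, and none was called lower, where 1.67% and 0.462% of all tested genes were called. The values of each library, and the means of each group, are in the plot of normalized CPM by library.

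**Figure D1:**
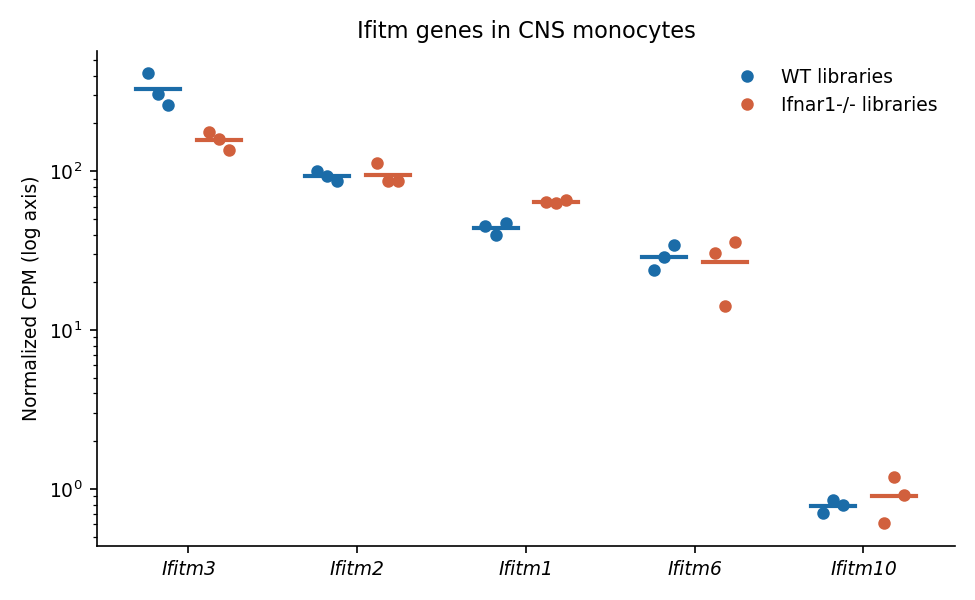
Normalized CPM (log axis) of the 5 members in each library, with blue points for WT and orange points for Ifnar1-/- libraries and bars for the group means (n = 3). The WT points of Ifitm3 (262 to 414) lie above its Ifnar1-/- points (137 to 177), those of Ifitm1 lie below, and those of Ifitm2, Ifitm6, and Ifitm10 overlap.

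*Ifitm3* (ENSMUSG00000025492.6) was measured at 414, 306, and 262 normalized CPM in the WT libraries numbered 1, 2, and 3, while its *Ifnar1*-/- values were 177, 158, and 137. Every WT library lay above every *Ifnar1*-/- library, and WT library 1 was the highest of the 6. The means were 327 ± 77.9 and 157 ± 20.3 (SD, n = 3 each). The log2 fold change of WT over *Ifnar1*-/- was 1.06 (SE 0.19, 95% interval 0.63 to 1.48, edgeR quasi-likelihood test, adjusted p = 0.0178), a fold of 1.55 to 2.79. The gene was also transcribed without the receptor, where it kept the highest level of the family. An exact permutation test (two-sided) gave p = 0.1, and 3 libraries against 3 cannot give a smaller one. Groups that did not overlap, with WT higher, were found for 11.1% of all tested genes. The call was kept in the 3 fits that each left out a WT library, with a log2 fold change of 0.86 without WT library 1. It was lost in each of the 3 fits that left out an *Ifnar1*-/- library, where the log2 fold change was 1.17, 1.08, and 0.98 and the adjusted p from edgeR was 0.0595, 0.0724, and 0.101 without libraries 1, 2, and 3.

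*Ifitm1* (ENSMUSG00000025491.14) encodes a member found mainly at the plasma membrane. It had 45.1, 40.0, and 47.0 normalized CPM in WT and 63.7, 63.4, and 65.5 in *Ifnar1*-/- libraries. The groups did not overlap, with WT lower, as was the case for 12.2% of all tested genes. The means were 44.0 ± 3.64 (SD, n = 3) and 64.2 ± 1.13 (SD, n = 3), and the log2 fold change was -0.54 (SE 0.13, 95% interval -0.83 to -0.25). This difference did not pass the threshold (adjusted p = 0.0682 from edgeR; exact permutation p = 0.1, again the lower limit), and its fold was also under 1.5. With offsets for GC content and gene length the log2 fold change was -0.31 (adjusted p = 0.365 from edgeR). Per length, *Ifitm1* had 59.9, 85.9, and 105.7 TPM (transcripts per fixed total) in WT and 100.1, 117, and 105.6 TPM in *Ifnar1*-/- libraries, so that on this scale the groups overlapped. *Ifitm1* has 3 annotated transcripts, and its effective length, the mean number of positions at which a fragment can start given the transcripts that RSEM assigned, was 533, 476, and 455 bases in WT and 553, 544, and 544 bases in *Ifnar1*-/- libraries. For *Ifitm3*, which has 1 annotated transcript, it was 473 to 483 bases in WT and 493 to 505 bases in *Ifnar1*-/- libraries, so that the WT libraries had the shorter values for both genes and the range was wider for *Ifitm1*.

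*Ifitm2* (ENSMUSG00000060591.9), like *Ifitm3* an inhibitor of virus entry through endosomes, had 100.5, 92.9, and 86.5 normalized CPM in WT and 113, 86.2, and 87.4 in *Ifnar1*-/- libraries. The groups overlapped, with means of 93.3 ± 7.00 and 95.4 ± 14.9 (SD, n = 3 each). The log2 fold change was -0.03 (SE 0.15, 95% interval -0.37 to 0.31, adjusted p = 0.942 from edgeR), and its sign changed with the processing. The interval excludes the 2.08-fold difference estimated for *Ifitm3*. *Ifitm6* (ENSMUSG00000059108.4) had 24.0, 28.9, and 34.2 normalized CPM in WT and 30.7, 14.2, and 36.0 in *Ifnar1*-/- libraries, where library 2 was the lowest of the 6. Its means were 29.0 ± 5.05 and 27.0 ± 11.4 (SD, n = 3 each). The log2 fold change was 0.10 (SE 0.29, 95% interval -0.55 to 0.75, adjusted p = 0.896 from edgeR), which is a fold of 0.685 to 1.68, and it was 0.52 with offsets for GC content and gene length (adjusted p = 0.412) and -0.19 without *Ifnar1*-/- library 2. In each group the library with the most *Ifitm6*, library 3, was also the one with the most neutrophil marker transcripts (1986 normalized CPM in WT and 2290 in *Ifnar1*-/-), a comparison made after the values were seen. Within that list, *Csf3r* and *Mmp8* were not highest in library 3 of either group, nor was *Cxcr2* in WT, whereas the other markers were.

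*Ifitm10* (ENSMUSG00000045777.14) had 5, 4, and 4 counts in WT and 4, 7, and 5 counts in *Ifnar1*-/- libraries. These are just above the floor of 3 counts, and the gene did not pass the filter. The mean was 0.784 ± 0.0695 in WT and 0.905 ± 0.288 in *Ifnar1*-/- libraries (normalized CPM, SD, n = 3 each; two-sided exact permutation test, p = 0.6), so a difference was not detectable at this depth. Part of these few counts could belong to the overlapping *Gm49369* (50.8 ± 14.8 against 53.7 ± 15.2 normalized CPM, SD, n = 3 each), which had a log2 fold change of -0.08. Of 9 further genes with a CD225 domain, none passed the filter: *Ifitm5*, which serves in bone mineralization, had 0 to 6 counts per library, *Ifitm7* had 0 to 1, and *Tmem233* and *Syndig1* had 0 in every library.

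Levels of different genes can be compared per length, in TPM. In both groups the order of the mean level was *Ifitm3*, *Ifitm2*, *Ifitm1*, *Ifitm6*, *Ifitm10*, and the same order held within each of the 6 libraries. *Ifitm3* had 609 ± 43.8 TPM in WT and 289 ± 45.7 in *Ifnar1*-/- monocytes (SD, n = 3 each), *Ifitm2* 187 ± 28.3 and 182 ± 22.5, and *Ifitm1* 83.8 ± 23.0 and 108 ± 8.80. *Ifitm6* had 58.6 ± 20.3 and 49.4 ± 17.5 TPM, and *Ifitm10* 2.04 ± 0.737 and 1.80 ± 1.30. Neighbors in this order had ranges that did not overlap, except *Ifitm1* and *Ifitm6* in WT, which overlapped although *Ifitm1* was higher within each library. By mean TPM *Ifitm3* ranked 146 among the tested genes in WT (the top 1.30%) and 336 in *Ifnar1*-/- monocytes (the top 2.99%). TPM of different libraries depend on their other RNAs: the small cytoplasmic RNA *Rn7s2* took 278102 TPM in WT library 1 and 73569 to 111751 in the others, and protein-coding genes took 34.8% of the TPM in WT library 1 and 43.2% to 51.6% in the others.

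Shares and ratios within a library do not depend on that total. Of the summed TPM of the 5 members, *Ifitm3* took 70.6%, 64.5%, and 59.8% in WT and 46.0%, 49.1%, and 41.8% in *Ifnar1*-/- libraries, with means of 65.0% ± 5.43 and 45.7% ± 3.66 (SD, n = 3 each). The groups did not overlap. *Ifitm2* took 19.8% ± 1.53 and 28.9% ± 1.5, *Ifitm1* took 8.87% ± 2.11 and 17.2% ± 1.86, and *Ifitm6* took 6.17% ± 1.90 and 8.0% ± 3.37. The summed level was 940 ± 77.9 TPM in WT and 630 ± 54.9 in *Ifnar1*-/- monocytes (SD, n = 3 each). *Ifitm3* was therefore the majority of the family's transcripts in every WT library and in none of the *Ifnar1*-/- libraries.

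**Figure D2:**
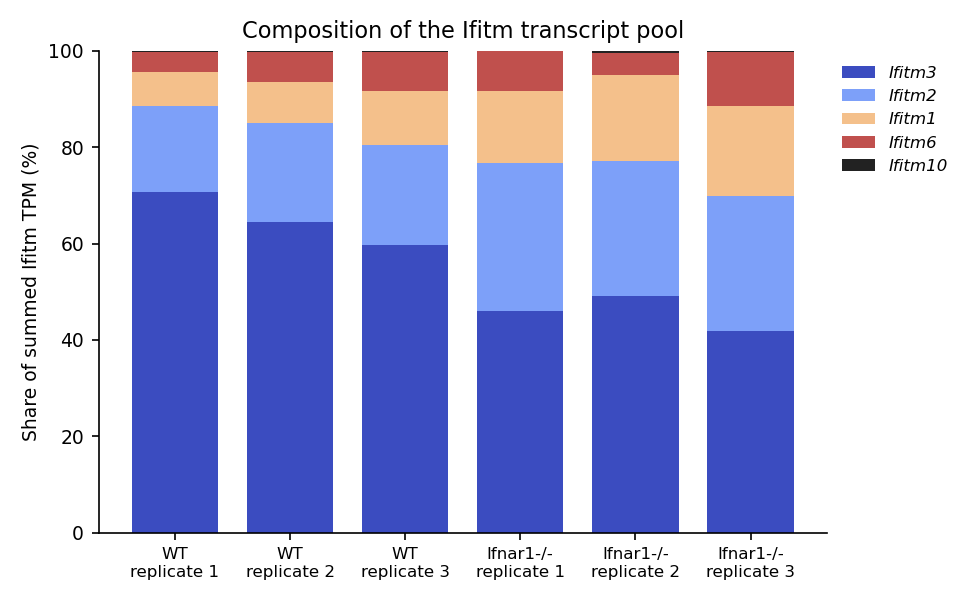
Share (%) of each member in the summed TPM of the 5 Ifitm genes, as 1 stacked bar for each WT and Ifnar1-/- library. The Ifitm3 share is 59.8% to 70.6% in WT and 41.8% to 49.1% in Ifnar1-/- libraries, and Ifitm10 takes under 1% of each bar.

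The ratio of each other member to *Ifitm3* was compared on the log2 scale of TPM. The ratio of *Ifitm1* to *Ifitm3* was -3.34, -2.93, and -2.42 in WT and -1.61, -1.46, and -1.17 in *Ifnar1*-/- libraries, a difference of -1.48. That of *Ifitm2* to *Ifitm3* was -1.97, -1.65, and -1.53 in WT and -0.59, -0.81, and -0.58 in *Ifnar1*-/- libraries, a difference of -1.06. For both ratios every WT library lay below every *Ifnar1*-/- library. Both have *Ifitm3* as the denominator, so its own change between the groups is part of each difference, which is not a separate result. For each of these ratios the exact permutation p was 0.1 (two-sided), which is the limit of the design, and 0.2 after adjustment over the 4 ratios. For *Ifitm6* (difference -0.84, exact permutation p = 0.3, adjusted 0.4) and *Ifitm10* (difference -0.67, exact permutation p = 0.5, adjusted 0.5) the groups overlapped. Single libraries set the size of these differences, which was -0.53 for *Ifitm6* without WT library 1 and -0.48 without *Ifnar1*-/- library 3, and for *Ifitm10* -1.34 without *Ifnar1*-/- library 1 and -0.19 without *Ifnar1*-/- library 2.

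The change of *Ifitm3* was small beside that of other IFN-induced antiviral genes. Of 25 such genes, which act against viruses by several routes and were listed with earlier results of these data known, all were tested. In WT 24 were called higher and none lower, where 1.67% and 0.462% of all tested genes were called. The median log2 fold change of the 25 was 3.56, where the median of all tested genes was -0.01. Only *Zc3hav1*, which binds viral RNA (log2 fold change 0.76, adjusted p = 0.0265 from edgeR), and *Samhd1*, a dNTPase (0.19, adjusted p = 0.609), had a smaller log2 fold change than *Ifitm3*. At the other end were *Ifit3* (5.22), *Oasl1* (5.11), and *Rsad2* (5.01), which had 3.84, 3.61, and 6.42 mean normalized CPM in *Ifnar1*-/- monocytes, where *Ifitm3* had 157. In TPM, 1 of the 25 genes had a higher mean level than *Ifitm3* in each group. *Eif2ak2*, the RNA-activated kinase PKR, came closest to *Ifitm3* from above, with a log2 fold change of 1.19 (67.7 ± 9.39 against 29.8 ± 8.14 normalized CPM, SD, n = 3 each; adjusted p = 0.0117 from edgeR).

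The ISRE search described above was made in the same way for these genes. Of the 20 with a promoter window, 11 held the core, and 6 held the longer form. The matches of these 6 are shown with 9 bases on each side, on the strand of the match, to be set beside the *Ifitm3* stretch (match in capitals).
Ifit1 (chr19:34640774-34640803, minus strand): ctgagactgGAAAGTGAAACTgaagcctgc
Ifit3 (chr19:34583362-34583391, minus strand): ccagaagagGAAAGTGAAACTtaccactga
Oas1a (chr5:120907525-120907554, minus strand): ccttctcggGAAATGGAAACTgaaaatcta
Bst2 (chr8:71537582-71537611, minus strand): gcattccagGAAAATGAAACTgaaaggctg
Ddx58 (chr4:40239805-40239834, plus strand): tggccatagGAAATCGAAACTgcctcaggg
Trim30a (chr7:104465211-104465240, plus strand): aggaactgaGAAAAAGAAACTaaagaacta
These genes had log2 fold changes of 4.80 (*Ifit1*), 5.22 (*Ifit3*), 4.70 (*Oas1a*), 2.10 (*Bst2*), 2.38 (*Ddx58*), and 1.68 (*Trim30a*), all above the 1.06 of *Ifitm3*. These matches share the pattern GAAANNGAAACT with those of *Ifitm3* and differ from them in the free bases. *Ncoa7*, an IFN-induced gene that is described in the next paragraph, also held the longer form and had a smaller log2 fold change than *Ifitm3*, 0.85.
Ncoa7 (chr10:30655840-30655869, minus strand): tccttgaggGAAACAGAAACTcaatcttgc
Genes with the pattern thus lay on both sides of *Ifitm3* in the size of their change, and so did genes without it. The core without the longer form was held by *Rsad2* (log2 fold change 5.01), *Oas3* (4.15), *Isg15* (3.56), *Ifih1* (1.64), and *Eif2ak2* (1.19). The windows of *Ifit2* (4.52), *Isg20* (3.87), and *Samhd1* (0.19) held the GAS letters and no core. A match is a description of the sequence, and binding was not measured here.

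Other IFN-induced genes that act on virus entry were closer to *Ifitm3* in size. Of 4, 1 was called higher in WT and none lower, where 1.67% and 0.462% of all tested genes were called. It was *Ncoa7* (log2 fold change 0.85, SE 0.17, adjusted p = 0.0328 from edgeR), which acts on endosomal acidity. *Ncoa7* was no longer called with the replicate number as a block (adjusted p = 0.0520 from edgeR) or without any 1 library. It had 24.0, 21.9, and 20.7 normalized CPM in WT and 12.5, 13.4, and 11.0 in *Ifnar1*-/- libraries. *Ly6e*, which hinders fusion of coronaviruses, had 947 ± 261 and 555 ± 117 normalized CPM (SD, n = 3 each; log2 fold change 0.77, adjusted p = 0.122), and *Cd74*, the MHC class II invariant chain, had a log2 fold change of 0.44 (adjusted p = 0.549). *Ch25h*, which makes 25-hydroxycholesterol, was at 2.63 ± 1.07 and 1.69 ± 1.76 normalized CPM (SD, n = 3 each; log2 fold change 0.62, adjusted p = 0.662).

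The median log2 fold change of 11 genes of type I IFN signaling was 0.29. Of all tested genes, 1.67% were called higher and 0.462% lower in WT, and of these 11 genes 3 were called higher and none lower. They were *Irf7*, which drives transcription of type I IFN genes (4.08, adjusted p = 1.6e-05 from edgeR), *Usp18*, which removes ISG15 and restrains the receptor (4.09, adjusted p = 1.3e-05), and *Stat2* (2.04, adjusted p = 0.000347). *Irf9*, whose product binds the ISRE in a complex with STAT proteins, did not pass the threshold (101 ± 5.46 and 71.3 ± 2.82 normalized CPM, SD, n = 3 each; log2 fold change 0.50, adjusted p = 0.0842). *Irf1*, a factor that binds the same element, was at 222 ± 61.9 and 220 ± 27.0 normalized CPM (log2 fold change 0.01). *Ifnar2*, *Jak1*, *Tyk2*, and *Socs1* had log2 fold changes from 0.10 to 0.63 and were not called.

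Genes whose products modify or bind IFITM proteins were not called in either direction, where 1.67% of all tested genes were called higher and 0.462% lower. The list held 8 genes, all tested, with log2 fold changes from -0.38 to 0.39 around a median of -0.06. *Zdhhc20*, a palmitoyltransferase for IFITM3, had 45.2 ± 3.44 normalized CPM in WT and 57.9 ± 5.46 in *Ifnar1*-/- monocytes (SD, n = 3 each; log2 fold change -0.36, adjusted p = 0.211 from edgeR), and its groups did not overlap. *Vcp*, an ATPase that binds ubiquitinated IFITM3, also did not overlap (log2 fold change -0.29, adjusted p = 0.364 from edgeR). Groups apart with WT lower were found for 12.2% of all tested genes. *Zmpste24*, a protease that acts with IFITM proteins (-0.38), *Nedd4*, which ubiquitinates IFITM3 (-0.15), *Setd7*, which methylates it (0.03), *Kdm1a*, which demethylates it (0.10), *Vapa*, a binding partner (0.12), and *Fyn*, which phosphorylates it (0.39), had overlapping groups. The plot of log2 fold changes by gene list sets the members beside these genes.

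**Figure D3:**
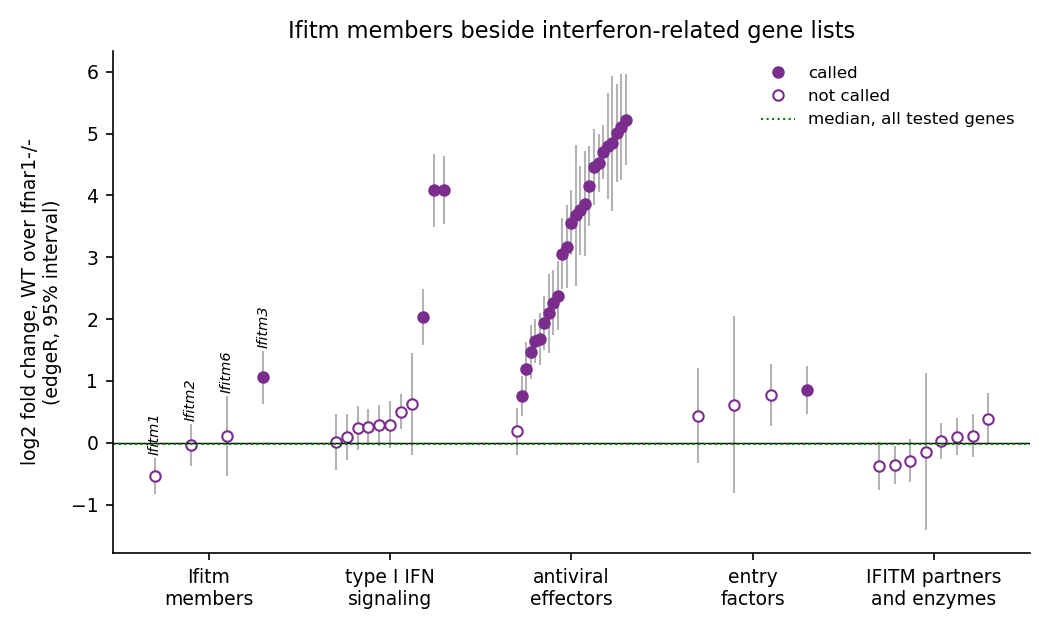
Log2 fold change of WT over Ifnar1-/- from edgeR, with 95% intervals, for the tested genes of 5 lists in order of size within each list (filled points called, open points not called, dotted line the median of all tested genes). Ifitm3 (1.06) lies above the other members and near the lower end of the antiviral effectors, which run from 0.19 to 5.22.

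The genes around the cluster were examined for changes in the same direction. Of 27 other genes tested within 500 kb of it, 2 were higher in WT, none was lower, and the median log2 fold change was -0.01. Among all tested genes 1.67% were called higher and 0.462% lower. The 2 called neighbors are few, and whether they exceed these shares was not tested. The called neighbors were *Irf7* (chr7:141262706-141266481, minus strand), whose start lies 256 kb from that of *Ifitm3*, and *Slc25a22* (chr7:141429744-141437892, minus strand), a mitochondrial glutamate carrier with 26.5 ± 6.76 and 8.07 ± 1.48 normalized CPM (SD, n = 3 each; log2 fold change 1.72, adjusted p = 0.00326 from edgeR). The tested genes next to the cluster were not called, namely *Pgghg*, a glucosidase gene on the *Ifitm2* side (log2 fold change 0.29, adjusted p = 0.593), and *Pkp3*, a plakophilin gene on the *Ifitm6* side (0.22, adjusted p = 0.754). Around *Ifitm10*, 0 of 8 tested genes were called, including the neighboring *Ctsd*, which encodes the lysosomal protease cathepsin D (1040 ± 306 and 836 ± 136 normalized CPM, SD, n = 3 each; log2 fold change 0.32, adjusted p = 0.505), and *Mob2* on the other side (log2 fold change -0.0018, adjusted p = 0.996).

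**Figure D4:**
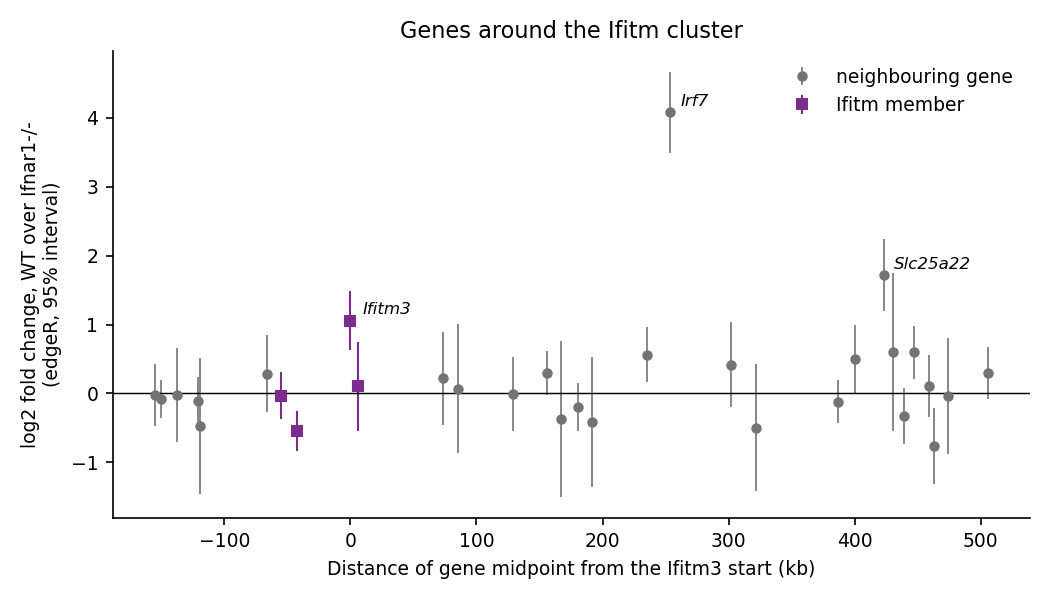
Log2 fold change of WT over Ifnar1-/- from edgeR, with 95% intervals, against the distance (kb) of each tested gene's midpoint from the start of Ifitm3 (squares, the 4 tested members; circles, 27 neighboring genes). Irf7 (4.08), Slc25a22 (1.72), and Ifitm3 (1.06) are the called genes, and the other members and neighbors run from -0.77 (Polr2l) to 0.60 (Pidd1). The intervals of Ifitm1 (-0.83 to -0.25) and of some neighbors that were not called do not include 0.

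The tested genes most like each member across the 6 libraries were found by Pearson's r of log2 normalized CPM plus 0.5, as a description, since the libraries share their groups. The 3 most like *Ifitm3* were *Atp10a* (r = 0.992, log2 fold change 1.28, adjusted p = 0.0285 from edgeR), *Ccnyl1* (r = 0.991, log2 fold change 0.55), and *D17Wsu92e* (r = 0.991, log2 fold change 0.68), of which *Atp10a*, a phospholipid-transporting ATPase, was called. Those most like *Ifitm1* were *Ginm1* (0.988), *Eps15* (0.988), and *Cdc42bpa* (0.987), and all had negative log2 fold changes that did not pass the threshold. Those most like *Ifitm2* included *Trim47* (0.993) and the hyaluronan receptor gene *Cd44* (0.992), and those most like *Ifitm6* were *Sumo3* (0.988), *Med17* (0.977), and *Gm4294* (0.974).

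The log2 fold changes of *Ifitm3* and *Ifitm1* under each analysis setting are plotted together. For *Ifitm3* they ranged from 1.04 to 1.30 over the 10 settings that kept all libraries and from 0.86 to 1.22 over the 6 that left 1 out. For *Ifitm1* they ranged from -0.55 to -0.31 and from -0.57 to -0.47. The sign of both genes was the same in all of these fits.

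**Figure D5:**
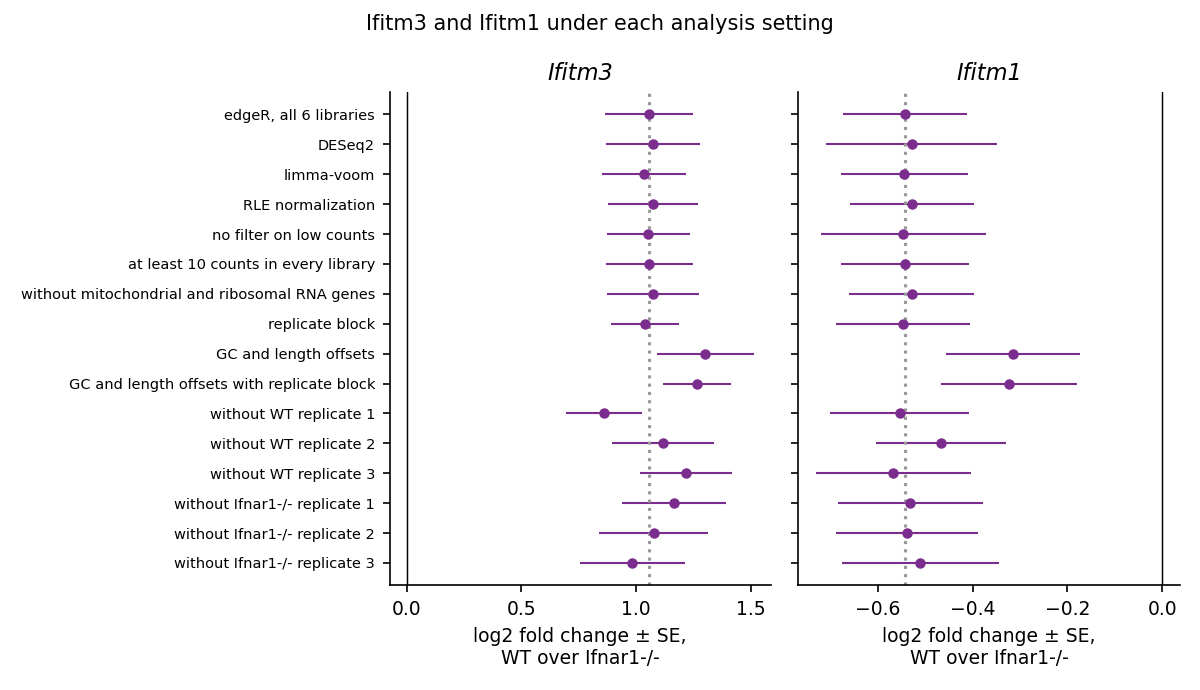
Log2 fold change of WT over Ifnar1-/- with its SE for Ifitm3 (left) and Ifitm1 (right) under each setting or left-out library, listed on the vertical axis, with a dotted line at the value of the edgeR test on all 6 libraries. All values of Ifitm3 lie above 0 and all values of Ifitm1 below 0, and offsets for GC content and length move both upward.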

How the data were processed

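The authors prepared stranded total RNA libraries (the deposited labels and the study's methods name different kits), sequenced paired-end reads of 75 bases, and mapped them to GRCm38; STAR 2.6.0c and RSEM 1.2.31 are listed in the submitters' processing notes. The deposited expected counts are RSEM estimates per gene, not normalized, and the deposited TPM are scaled by the authors for effective length and to a fixed total per library. Groups came from the deposited sample labels.

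Gene symbols came from GENCODE M21, which matched 54165 of 54232 identifiers. Expected counts were rounded and compared with edgeR 4.0.16 in R 4.3.3 (TMM, filterByExpr with a minimum count of 10, quasi-likelihood test, no block, adjustment over all 11254 tested genes of 21265 with any count). Intervals used the SE and the total degrees of freedom of that fit, which are the residual ones plus those edgeR adds by sharing information between genes. Exact permutation tests were two-sided, on log2 normalized CPM plus 0.5 or on log2 TPM ratios. The alternatives tried were DESeq2 1.42.0 (used in the study), limma-voom (limma 3.58.1), RLE normalization, no filter, at least 10 counts in every library, leaving out mitochondrial and rRNA genes, no fold threshold, a replicate block, GC and length offsets (mgcv 1.9.3) with and without the block, and leaving out each library. Tested on simulated counts of 11098 genes for this comparison, edgeR recovered 87.2% of 4-fold and 56.2% of 2-fold changes, with 8.23% false calls.

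The members, gene lists, motifs, and tests were chosen with earlier results of these data known. The text names the members, the genes of the lists, the nearest or overlapping genes, the 3 tested genes most like each member, and called neighbors. Named after their values were seen were *Slc25a22* and *Rn7s2*. Replicates of a group differed by more than counting noise. Libraries with the same number correlated in their deviations from the group means by 0.0872, 0.0265, and 0.289, and no source states that they share a mouse. Values of a few single genes named by this rule are not reported here.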

Additional observations from a re-analysis of the deposited data

How the results depend on the processing

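*Ifitm3* was called under each of the 10 settings that kept all 6 libraries, and the fit with a replicate block gave it a log2 fold change of 1.04 (edgeR, adjusted p = 0.00880), whereas *Ifitm1*, *Ifitm2*, and *Ifitm6* were called under none. The setting without a fold threshold used the main fit itself, so it could not lose the call of *Ifitm3*. The 3 fits without an *Ifnar1*-/- library (0 members called, against 1 in the 3 fits without a WT library) gave *Ifitm3* adjusted p-values from 0.0595 to 0.101, and over all 6 fits that left out 1 library its log2 fold change ranged from 0.86 to 1.22. The log2 fold change of *Ifitm2* was 0.13 with GC and length offsets, 0.13 with these offsets and the replicate block, and from -0.085 to 0.12 with 1 library left out (0.04 without WT library 3 and 0.12 without *Ifnar1*-/- library 1). That of *Ifitm6* ranged from -0.19 to 0.38 with 1 library left out (-0.0084 without WT library 3). The number of entry factor genes called was 2 with DESeq2, 2 without a filter on low counts, 0 with the replicate block, and 0 without any 1 library, against 1. Over all genes, 469 were called with DESeq2 (354 higher, 115 lower), 872 without a filter (610 higher, 262 lower), and 119 to 245 without 1 library, against 240. When TPM were scaled over protein-coding genes only, the mean in WT and *Ifnar1*-/- monocytes was 1386 and 626.8 for *Ifitm3*, 415.2 and 398.2 for *Ifitm2*, 184.1 and 234.0 for *Ifitm1*, 126.9 and 110.4 for *Ifitm6*, and 4.48 and 3.75 for *Ifitm10*. Without a filter, *Ifitm1* had an adjusted p of 0.0388 at a fold under 1.5, and *Ifitm10* a log2 fold change of -0.21 (adjusted p = 0.935). The ratios to *Ifitm3* kept their sign under all 8 alternatives. Of these, normalized CPM per effective length gives the same ratios as TPM by construction, so it could not change the sign. The cause of these changes was not tested. The libraries of a number are not stated to share a mouse, and their correlations were not all over 0.1, so the block rests on a shared number only.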
